A study of Arabidopsis thaliana with 12 samples.

Results

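The serine carboxypeptidase-like (SCPL) family was examined on 12 Affymetrix arrays of whole Arabidopsis thaliana seedlings. A gene was a member if the platform annotation gave it a probe set of its own and a symbol made of SCPL and a number, in upper or lower case, written in capitals here. This gave 29 members, each with 1 probe set, of 13356 genes with a single-gene probe set. The reference annotation TAIR10.1 lists 51 SCPL genes. Of these, 3 (SCPL36, SCPL37 and SCPL39) had only probe sets shared with another gene, with log2 values of 3.65 to 4.13 over the 12 arrays, and 19 others were not analysed here. The arrays compared 4 genotypes in the Col-0 ecotype with 3 biological replicates each, numbered 2, 3 and 4, all harvested 5 days after germination. Wild type (WT) was the control. The other genotypes were spch, whose epidermis the labels describe as pavement cells only, scrm-D, described as having an epidermis of guard cells, and the double mutant scrm-D;mute, with an epidermis almost wholly of meristemoids, the dividing precursors of guard cells. The double mutant thus shares the scrm-D allele with scrm-D. The labels do not number the spch and mute alleles, and the epidermis is only 1 of the tissues of the whole seedlings that were extracted.

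SCPL proteins share the fold and the serine, aspartate and histidine catalytic triad of serine carboxypeptidases, which release amino acids from the carboxyl end of peptides. A branch of the family has instead become acyltransferases, which move an acyl group from a glucose ester onto another molecule. SNG1 and SNG2, the enzymes that make sinapoylmalate in leaves and sinapoylcholine in seeds, belong to that branch. BRS1, a member of the carboxypeptidase branch, came to notice because its overexpression suppresses a brassinosteroid receptor mutant. SNG1, SNG2 and BRS1 had no single-gene probe set in the annotation used and were not analysed here. The members are taken below in 3 groups by family number: SCPL1 to SCPL21, the branch that holds the known acyltransferases (4 members), SCPL22 to SCPL46, related to plant carboxypeptidases (21 members), and SCPL47 to SCPL51, which include relatives of yeast carboxypeptidase Y (4 members). This grouping follows general knowledge of the family numbering and was not checked against sequences here. The substrates of most members are not established, so no role is given for them one by one.

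The array medians lay between 6.39 and 6.53 on the log2 scale. Of the mutated genes, SPCH and MUTE were read as a check of the labels, and the gene of the scrm-D allele was not. SPCH averaged 6.36 in WT, 5.31 in spch, 7.57 in scrm-D and 10.77 in the double mutant. MUTE averaged 4.48 in WT, 4.19 in spch, 7.03 in scrm-D and 10.78 in the double mutant. It was thus highest in the genotype that carries the mute mutation, so its level cannot check that label. The sources used here do not place the lesions relative to these probe sets. A control probe set for 25S ribosomal RNA, a sign of RNA composition, read 6.56 to 7.50 on the WT arrays, 8.66 to 11.04 on the spch arrays and 8.98 to 10.07 on the scrm-D arrays. In the double mutant it read 10.84, 11.06 and 6.96 on replicates 2, 3 and 4. Bacterial control probe sets were counted as absent in genotypes where they averaged under 8. Their values there had a 95th percentile of 4.95, used here as the background level. Because seedlings were extracted whole, fewer cells of a type and less RNA per cell cannot be told apart in any of the differences that follow.

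Members that changed against WT fell, and no member was called higher than WT in any of the 3 mutants. Differences are log2 values from limma, a linear model with variances moderated across all probe sets, and a member was called when its p, adjusted by the Benjamini-Hochberg method over all 22746 probe sets, lay under 0.05. In spch 9 of 29 members were called lower and 0 higher, where 9.93% of all probe sets were called lower and 9.60% higher. In scrm-D 5 members were called lower and 0 higher (7.39% and 6.76% of all probe sets), and 3 were called without WT replicate 4, scrm-D replicate 2 or scrm-D replicate 4. In the double mutant 9 members were called lower and 0 higher (13.6% and 14.1%). In both directions together, 19.5%, 14.2% and 27.7% of all probe sets were called. At an unadjusted p under 0.05, limma placed 0, 0 and 1 members higher in spch, scrm-D and the double mutant, the last being SCPL49. The 3 comparisons share the WT arrays, so their calls are not independent of each other.

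Over all 29 members, called or not, differences from WT leaned the same way. The member counts and medians that follow include the 9, 5 and 9 members called lower in spch, scrm-D and the double mutant. Except where the 17 members above the background level are named, they also include the 12 members whose mean was not above it. The median member difference from WT was −0.26 in spch, −0.12 in scrm-D and −0.25 in the double mutant, beside −0.00448, −0.01 and −0.00737 over all probe sets. Differences below 0 were found for 23, 26 and 25 of the 29 members, that is 79.3%, 89.7% and 86.2%, against 50.7%, 52.8% and 51.1% of all probe sets. Non-overlapping groups with the mutant lower were found for 14, 7 and 13 members (18.1%, 15.5% and 20.2% of all probe sets), and with the mutant higher for 1, 0 and 2 (17.0%, 14.5% and 21.2%). WT had the highest of the 4 genotype means for 20 of the 29 members and for 23.6% of all probe sets. WT had the lowest mean for 1 member, against 20.6% of all probe sets. Among the 17 members whose mean lay above the background level, WT was highest for 14, against 19.1% of all probe sets above it, and lowest for 0, against 22.4%.

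**Figure D1:**
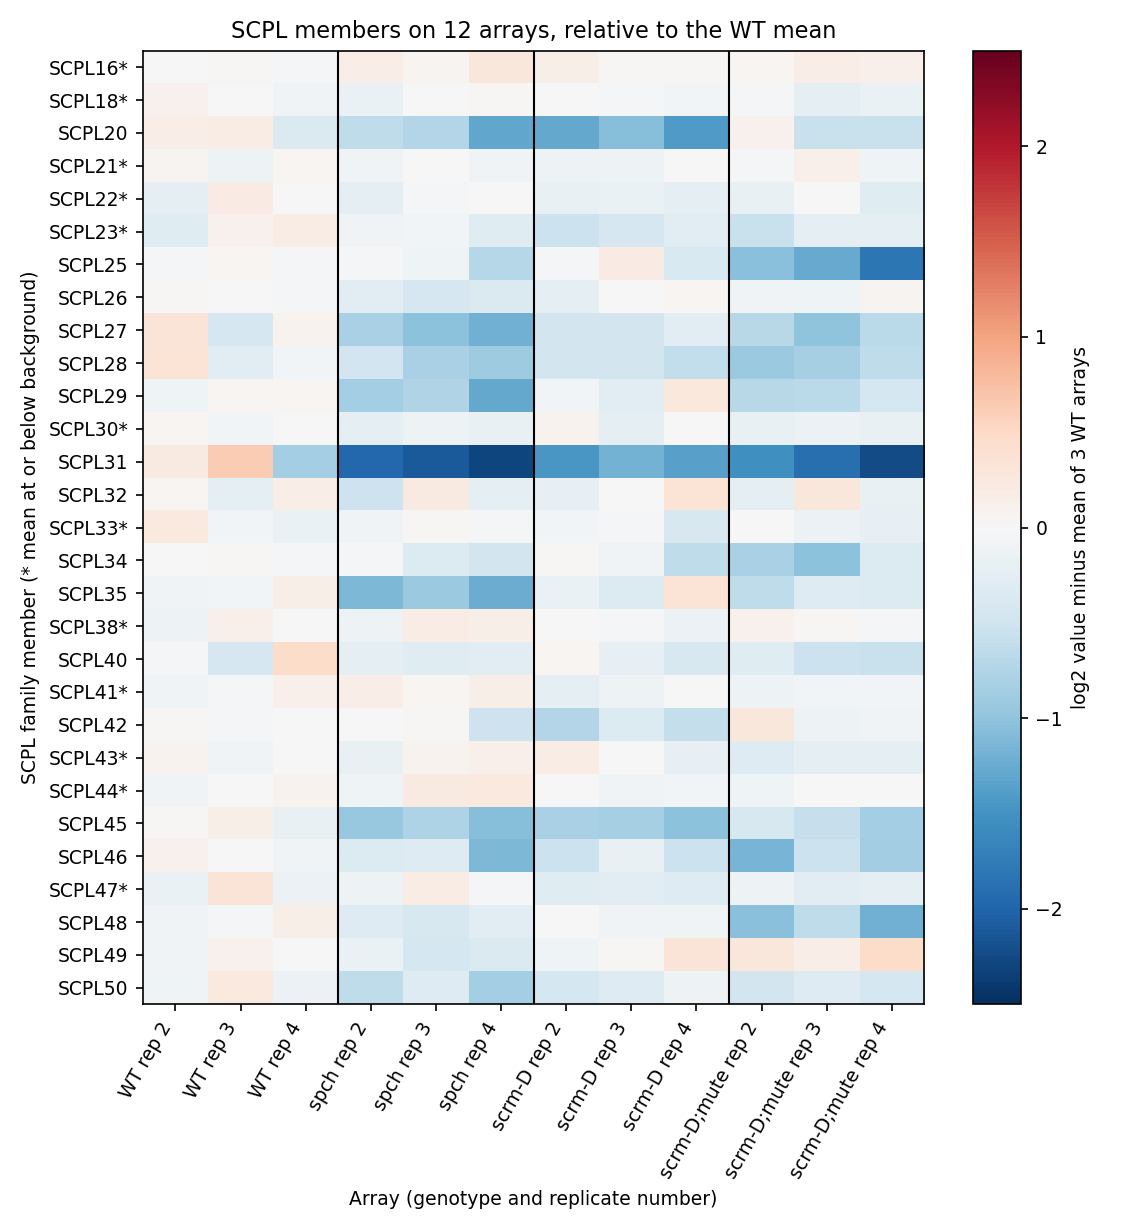
Each row is an SCPL member and each column an array, coloured by its log2 value minus the mean of the 3 WT arrays; asterisks mark the 12 members whose mean over the arrays is not above the background level of 4.95. Blue, lower than WT, runs through the mutant columns of SCPL31 and SCPL45, is strongest in spch for SCPL35 and SCPL29, and strongest in the double mutant for SCPL25 and SCPL48.

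An F test over the 4 genotypes called 15 of the 29 members, where 44.4% of all probe sets were called. The same 15 were called in at least 1 of the 6 pairwise comparisons, and 14 of them in at least 1 comparison with WT. SCPL31, SCPL45 and SCPL28 were lower in all 3 mutants, 3 members in 2 mutants and 8 in 1. Means over the 12 arrays were above the background level for 17 members. The other 12 members, SCPL16, SCPL18, SCPL21, SCPL22, SCPL23, SCPL30, SCPL33, SCPL38, SCPL41, SCPL43, SCPL44 and SCPL47, read between 3.61 and 5.22 on every array. None of these 12 was called by limma in any of the 6 comparisons. The value closest to a call was that of SCPL23 in scrm-D against WT (adjusted p = 0.0814, or 0.0469 with a replicate block). SCPL23 was called in that comparison without WT replicate 2 (adjusted p = 0.0247) and, without the same array, in the double mutant (0.0251).

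Among the 4 members related to the acyltransferases, only SCPL20 (AT4G12910) was above background. SCPL20 read 7.65, 7.67 and 7.11 on the WT arrays of replicates 2, 3 and 4, 6.85, 6.74 and 6.19 in spch, 6.19, 6.41 and 6.07 in scrm-D, and 7.58, 6.91 and 6.92 in the double mutant. All spch and scrm-D arrays lay below all WT arrays, while the double mutant overlapped WT. SCPL20 was 2.39-fold lower in scrm-D (log2 difference −1.25 ± 0.22 SE, adjusted p = 0.00249) and 1.85-fold lower in spch (−0.89 ± 0.22, adjusted p = 0.0145). The double mutant differed from WT by −0.34 ± 0.22 (adjusted p = 0.301) and was 1.89-fold higher than scrm-D (0.92 ± 0.22, adjusted p = 0.0163). The spch call ended without WT replicate 2 (adjusted p = 0.0561), WT replicate 3 (0.0604) or spch replicate 4 (0.0629). The call between the double mutant and scrm-D ended without scrm-D replicate 2 (0.0504), scrm-D replicate 4 (0.0589) or replicate 2 of the double mutant (0.0735).

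Of the 21 members related to plant carboxypeptidases, 7 fell in spch, 4 in scrm-D and 8 in the double mutant, where 9.93%, 7.39% and 13.6% of all probe sets were called lower. The group medians were −0.26, −0.17 and −0.34, beside −0.00448, −0.01 and −0.00737 over all probe sets. SCPL31 (AT1G11080) had the largest fitted differences from WT among the 29 members in spch and the double mutant. In scrm-D its −1.33 and the −1.25 of SCPL20 were close, and without WT replicate 3 they were −1.01 and −1.16. It read 6.84, 7.26 and 5.77 in WT, 4.66, 4.52 and 4.34 in spch, 5.17, 5.45 and 5.26 in scrm-D, and 5.09, 4.74 and 4.38 in the double mutant. The WT arrays spread widely, with replicate 4 over 1 log2 unit below the other two, yet every mutant array lay below every WT array. The means were 6.62 ± 0.77 (SD, n = 3) in WT, 4.51 ± 0.16 in spch, 5.29 ± 0.14 in scrm-D and 4.74 ± 0.35 in the double mutant. Since the spch and double mutant means lay under the background level, SCPL31 was at least 3.19-fold lower in each of them than in WT (fitted differences −2.12 ± 0.30 SE and −1.89 ± 0.30, adjusted p = 0.000471 and 0.000536). In scrm-D it was 2.52-fold lower (−1.33 ± 0.30, adjusted p = 0.00989). Those 3 calls held in all 12 fits that left out 1 array. SCPL31 in scrm-D lay at least 1.27-fold above spch, whose mean was under the background level, with non-overlapping arrays (adjusted p = 0.0657), and this passed without WT replicate 3 or 4 (0.0326 and 0.00674), arrays outside that comparison that share its estimate of the spread.

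SCPL45 (AT1G28110) fell in all 3 mutants by smaller amounts and with tight replicates. Its values were 8.56, 8.67 and 8.34 in WT, 7.58, 7.74 and 7.46 in spch, 7.72, 7.68 and 7.49 in scrm-D, and 8.12, 7.94 and 7.67 in the double mutant. No mutant array reached a WT array. SCPL45 was 1.90-fold lower in spch (−0.93 ± 0.14 SE, adjusted p = 0.000671), 1.85-fold lower in scrm-D (−0.89 ± 0.14, adjusted p = 0.00101) and 1.53-fold lower in the double mutant (−0.61 ± 0.14, adjusted p = 0.00560). All 3 calls held without any 1 array. The double mutant lay 0.31 ± 0.14 above spch, which was not called (adjusted p = 0.102), but gave 0.0299 with a replicate block and 0.0343 without replicate 4 of the double mutant.

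SCPL28 (AT2G35770) lay near background, with 5.92, 5.31 and 5.53 in WT, 5.10, 4.77 and 4.70 in spch, 5.13, 5.12 and 4.97 in scrm-D, and 4.66, 4.76 and 4.94 in the double mutant. Against WT it was at least 1.55-fold lower in spch (adjusted p = 0.00656) and in the double mutant (adjusted p = 0.00255). In scrm-D it differed by −0.51 ± 0.16 (adjusted p = 0.0478). That call ended without any 1 of 8 arrays, namely WT replicates 2 and 4, spch replicate 3, the 3 scrm-D arrays, and replicates 2 and 3 of the double mutant, with adjusted p from 0.0548 to 0.179. SCPL28 and SCPL26 are neighbouring genes in the reference annotation, the only pair of neighbours among the members above background.

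**Figure D2:**
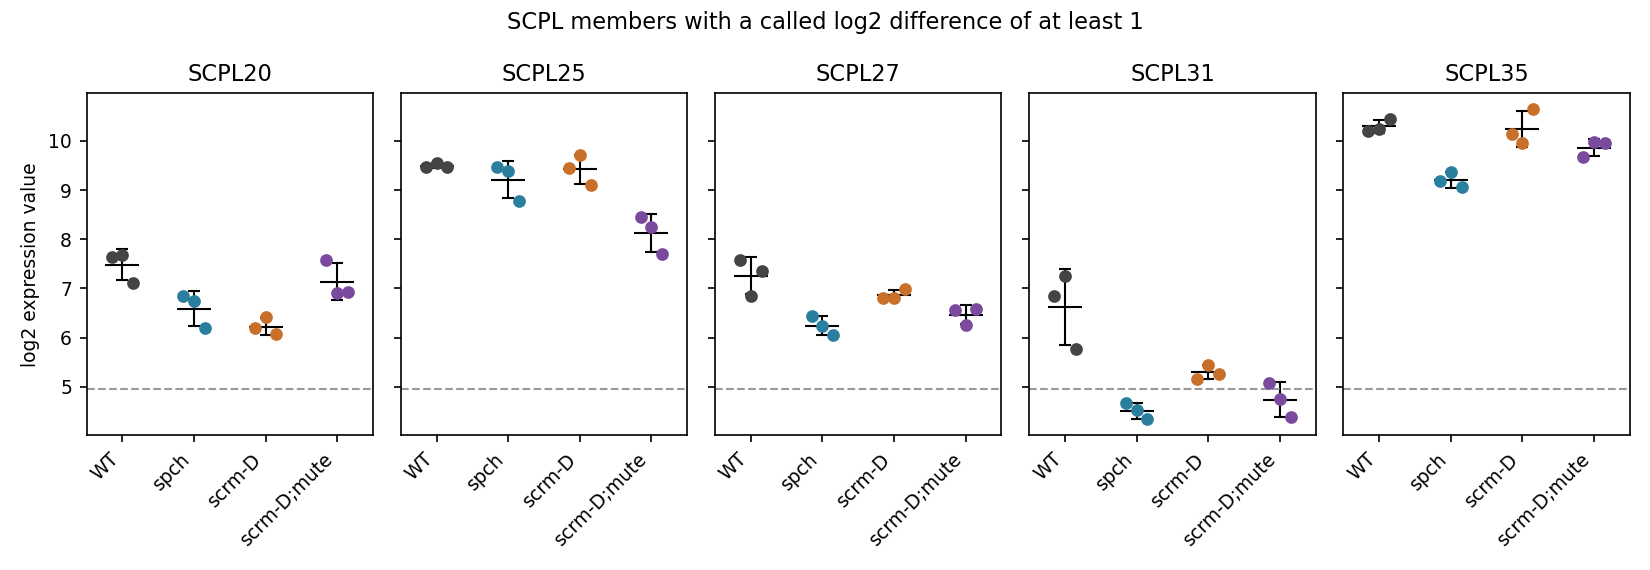
Points are the 3 arrays of each genotype (replicates 2, 3 and 4 from left to right) for the 5 members with a called log2 difference of at least 1, bars are the mean ± SD, and the dashed line is the background level of 4.95; the axis is log2 expression. SCPL31 in spch lies wholly under the line, the double mutant is lowest for SCPL25, and spch is lowest for SCPL27 and SCPL35.

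SCPL35, SCPL29 and SCPL27 were lower in spch than in both WT and scrm-D. SCPL35 (AT5G08260) read 10.21, 10.24 and 10.45 in WT, 9.18, 9.37 and 9.06 in spch, 10.13, 9.95 and 10.65 in scrm-D, and 9.66, 9.97 and 9.96 in the double mutant. The spch arrays lay below those of each other genotype, and scrm-D overlapped WT. SCPL35 in spch was 2.14-fold lower than in WT (−1.10 ± 0.17 SE, adjusted p = 0.000860). From the spch level, scrm-D was 2.06-fold higher (1.04 ± 0.17, adjusted p = 0.000576) and the double mutant 1.58-fold higher (0.66 ± 0.17, adjusted p = 0.00885). Those 3 calls held without any 1 array. The double mutant differed from WT by −0.44 ± 0.17 (adjusted p = 0.0746), which passed without scrm-D replicate 4 (0.0252).

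SCPL29 (AT4G30810) read 9.66, 9.82 and 9.82 in WT, 8.91, 9.01 and 8.49 in spch, 9.70, 9.50 and 10.04 in scrm-D, and 9.07, 9.10 and 9.33 in the double mutant. Its scrm-D arrays spanned the WT range, the double mutant lay between, and spch was lowest on every array. SCPL29 in spch was 1.95-fold lower than in WT (−0.96 ± 0.16 SE, adjusted p = 0.00146). In scrm-D it was 1.92-fold higher than in spch (0.94 ± 0.16, adjusted p = 0.000830), and neither call was lost without any 1 array. The double mutant was 1.51-fold lower than WT (adjusted p = 0.0152) and 1.49-fold lower than scrm-D (adjusted p = 0.0328). The first of these ended without replicate 2 or 3 of the double mutant (0.0549 and 0.0531). The second ended without either of those arrays (0.115 and 0.106) or without scrm-D replicate 2 or 4 (0.0680 and 0.123).

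SCPL27 (AT3G07990) read 7.58, 6.84 and 7.36 in WT, 6.44, 6.24 and 6.05 in spch, 6.80, 6.80 and 6.99 in scrm-D, and 6.56, 6.25 and 6.59 in the double mutant. The spch and double mutant arrays lay below all WT arrays, and scrm-D overlapped WT through WT replicate 3. SCPL27 was 2.02-fold lower in spch (−1.01 ± 0.18 SE, adjusted p = 0.00178) and 1.73-fold lower in the double mutant (−0.79 ± 0.18, adjusted p = 0.00520). In scrm-D it differed by −0.40 ± 0.18 (adjusted p = 0.174, and 0.0269 without WT replicate 3). It was 1.54-fold higher in scrm-D than in spch (adjusted p = 0.0179), a call that ended without spch replicate 4 (0.0678) or scrm-D replicate 4 (0.0631).

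SCPL26 (AT2G35780) showed the smallest called difference from WT. It read 9.93, 9.91 and 9.88 in WT, 9.62, 9.50 and 9.54 in spch, 9.67, 9.89 and 9.96 in scrm-D, and 9.83, 9.80 and 9.98 in the double mutant. The spch arrays lay under all others, by −0.35 ± 0.10 (SE) from WT (adjusted p = 0.0306). That call ended without any 1 of the WT arrays, spch replicate 3 or spch replicate 4, with adjusted p from 0.0607 to 0.0872. The double mutant was higher than spch by 0.31 ± 0.10 (adjusted p = 0.0333), ending without spch replicates 3 or 4 or replicates 2 or 4 of the double mutant (0.0574 to 0.119). scrm-D lay 0.29 ± 0.10 above spch (adjusted p = 0.0516, and 0.0203 without scrm-D replicate 2).

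SCPL25, SCPL46 and SCPL34 had their lowest mean in the double mutant. SCPL25 (AT3G02110) read 9.47, 9.55 and 9.46 in WT, 9.48, 9.38 and 8.78 in spch, 9.45, 9.71 and 9.11 in scrm-D, and 8.45, 8.24 and 7.70 in the double mutant. Replicate 4 was the lowest array of each genotype, with WT tight and the mutants spread, yet all 3 double mutant arrays lay below all 9 others. SCPL25 was 2.58-fold lower in the double mutant than in WT (−1.37 ± 0.22 SE, adjusted p = 0.000602), 2.45-fold lower than in scrm-D (−1.29 ± 0.22, adjusted p = 0.00175) and 2.12-fold lower than in spch (−1.08 ± 0.22, adjusted p = 0.00205). These 3 calls held without any 1 array and in all other alternatives run. spch and scrm-D differed from WT by −0.28 ± 0.22 and −0.07 ± 0.22 (adjusted p = 0.454 and 0.889).

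SCPL46 (AT2G33530) read 8.37, 8.24 and 8.16 in WT, 7.91, 7.92 and 7.13 in spch, 7.73, 8.07 and 7.72 in scrm-D, and 7.10, 7.72 and 7.38 in the double mutant. Every array of each mutant lay below every WT array. The double mutant was 1.81-fold lower than WT (−0.86 ± 0.21 SE, adjusted p = 0.00953), and this call held without any 1 array. In spch the difference was −0.60 ± 0.21 (adjusted p = 0.0667), which passed with a replicate block (0.0296) or without spch replicate 3 (0.0497). In the double mutant against spch it was −0.26 ± 0.21, which passed without spch replicate 4 (−0.52, adjusted p = 0.0419).

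SCPL34 (AT5G23210) read 8.72, 8.76 and 8.69 in WT, 8.68, 8.38 and 8.26 in spch, 8.76, 8.65 and 8.09 in scrm-D, and 7.91, 7.70 and 8.38 in the double mutant. WT was tight, and replicate 4 was apart in both genotypes with the scrm-D allele, low in scrm-D and high in the double mutant. SCPL34 was 1.66-fold lower in the double mutant than in WT (−0.73 ± 0.20 SE, adjusted p = 0.0153), a call that ended without replicate 2 or 3 of the double mutant (0.0518 and 0.0706). Against scrm-D the double mutant differed by −0.50 ± 0.20 (adjusted p = 0.121), which passed without scrm-D replicate 4 (0.0312) or replicate 4 of the double mutant (0.0310). Against spch it differed by −0.44 ± 0.20 (adjusted p = 0.107), which passed without replicate 4 of the double mutant (0.0243).

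SCPL42 (AT5G42240) was the remaining carboxypeptidase relative called against WT, in scrm-D. It read 8.47, 8.42 and 8.47 in WT, 8.44, 8.48 and 7.94 in spch, 7.72, 8.12 and 7.87 in scrm-D, and 8.74, 8.33 and 8.37 in the double mutant. The scrm-D arrays lay below all WT and double mutant arrays. SCPL42 was 1.47-fold lower in scrm-D than in WT (adjusted p = 0.0394) and 1.49-fold higher in the double mutant than in scrm-D (adjusted p = 0.0346). The first call ended without any 1 WT array or scrm-D replicate 2 or 4 (0.0813 to 0.129). The second ended without scrm-D replicates 2 or 4 or replicates 2 or 3 of the double mutant (0.0513 to 0.147). scrm-D lay −0.39 ± 0.16 from spch (adjusted p = 0.0940), which passed without spch replicate 4 (−0.56, adjusted p = 0.0163). SCPL32 and SCPL40, the remaining carboxypeptidase relatives above background, averaged 4.83 to 5.29 in the 4 genotypes and were not called. SCPL40 passed in the double mutant against WT without WT replicate 3 (adjusted p = 0.0125), with a double mutant mean of 4.83, under the background level.

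**Figure D3:**
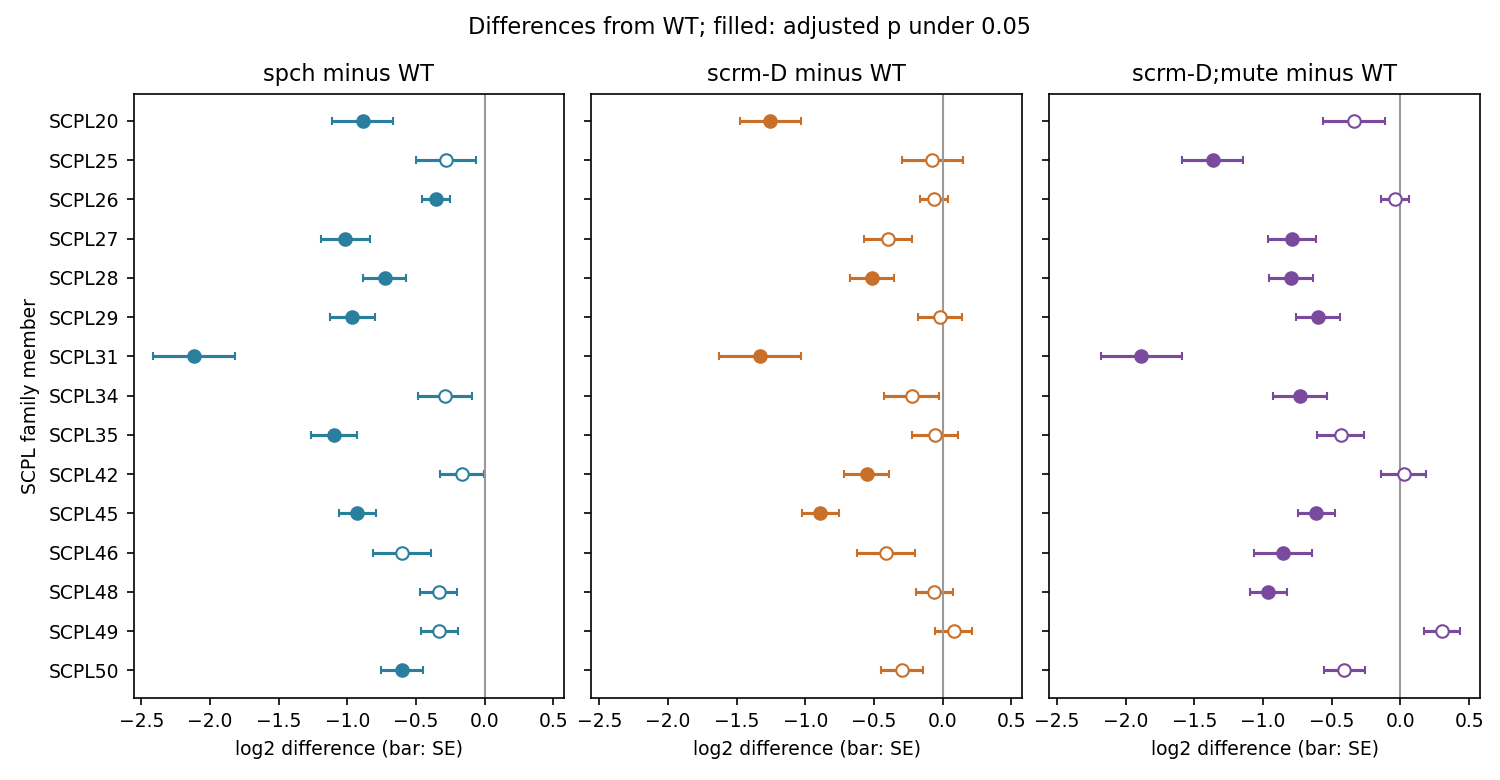
Log2 differences from WT (horizontal axis, bars are the standard error) of the 15 members called in at least 1 of the 6 comparisons, in spch, scrm-D and the double mutant; filled points were called at an adjusted p under 0.05. All filled points lie left of 0, from −2.12 for SCPL31 in spch to −0.35 for SCPL26 in spch, and the point farthest to the right is SCPL49 in the double mutant at 0.30, not called.

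The members numbered 47 to 51 divided by genotype. SCPL48 (AT3G45010) read 8.72, 8.74 and 8.94 in WT, 8.48, 8.39 and 8.51 in spch, 8.79, 8.71 and 8.71 in scrm-D, and 7.75, 8.17 and 7.59 in the double mutant. The double mutant arrays lay below all 9 others. SCPL48 was 1.95-fold lower in the double mutant than in WT (−0.96 ± 0.14 SE, adjusted p = 0.000241), 1.87-fold lower than in scrm-D (−0.90 ± 0.14, adjusted p = 0.000783) and 1.54-fold lower than in spch (−0.63 ± 0.14, adjusted p = 0.00323), and these calls held without any 1 array. In spch it differed from WT by −0.33 ± 0.14 (adjusted p = 0.112), which passed without replicate 3 of the double mutant (0.0436), an array outside that comparison.

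SCPL49 (AT3G10410) was called in the comparisons of both other mutants with spch, where it was lowest, and in none with WT. It read 10.21, 10.40 and 10.29 in WT, 10.13, 9.85 and 9.93 in spch, 10.19, 10.32 and 10.62 in scrm-D, and 10.58, 10.46 and 10.76 in the double mutant. The spch arrays lay below all others, and the double mutant arrays above all WT arrays. The double mutant was 1.55-fold higher than spch (0.63 ± 0.13 SE, adjusted p = 0.00266), which held without any 1 array, and scrm-D was 1.33-fold higher than spch (adjusted p = 0.0341). The latter ended without spch replicates 3 or 4 or scrm-D replicates 3 or 4 (0.0582 to 0.144). Neither spch (−0.33 ± 0.13, adjusted p = 0.109) nor the double mutant (0.30 ± 0.13, adjusted p = 0.115) was called against WT.

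SCPL50 (AT1G15000) read 6.82, 7.18 and 6.78 in WT, 6.30, 6.60 and 6.07 in spch, 6.49, 6.61 and 6.79 in scrm-D, and 6.47, 6.60 and 6.48 in the double mutant. Against WT, spch was 1.52-fold lower (−0.60 ± 0.15 SE, adjusted p = 0.0141). The call ended without WT replicate 3 (0.0652) or spch replicate 4 (0.0637). In the double mutant it differed from WT by −0.41 ± 0.15 with non-overlapping arrays (adjusted p = 0.0615), passing without spch replicate 3 (0.0410) or 4 (0.0429), neither of which is in that comparison. scrm-D lay 0.31 ± 0.15 above spch, which passed without spch replicate 3 (0.45, adjusted p = 0.0466).

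Between the mutants, the members moved in both directions. In the double mutant against scrm-D, genotypes that differ by the mute mutation, SCPL20 and SCPL42 were called higher and SCPL25, SCPL29 and SCPL48 lower (7.45% of all probe sets were called higher and 5.94% lower, together 13.4%). Arrays did not overlap for 3 members higher and 8 lower (15.5% and 12.9%). The median over the 29 members was −0.09, beside 0.00223 over all probe sets. Without scrm-D replicate 2 or replicate 2 of the double mutant 2 members were called, and without scrm-D replicate 4 or replicate 3 of the double mutant 3 were. In scrm-D against spch, SCPL27, SCPL29, SCPL35 and SCPL49 were called higher and 0 lower (15.3% and 14.7%, together 30.0%, of all probe sets), with a median of 0.06 beside −0.03. Without scrm-D replicate 4, 2 were called in that comparison. At an unadjusted p under 0.05, 9 members passed limma's test there, 6 of them higher. Arrays did not overlap for 7 members higher in scrm-D and 2 lower (19.8% and 21.1% of all probe sets). In the double mutant against spch, SCPL26, SCPL35 and SCPL49 were called higher and SCPL25 and SCPL48 lower (17.2% and 16.1%, together 33.2%), with a median of −0.06 beside −0.02. Arrays did not overlap for 5 members higher and 5 lower in the double mutant (22.0% and 22.0%). SCPL20 lay 0.55 ± 0.22 higher in that comparison with non-overlapping arrays (adjusted p = 0.0792, or 0.0158 with a replicate block).

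**Figure D4:**
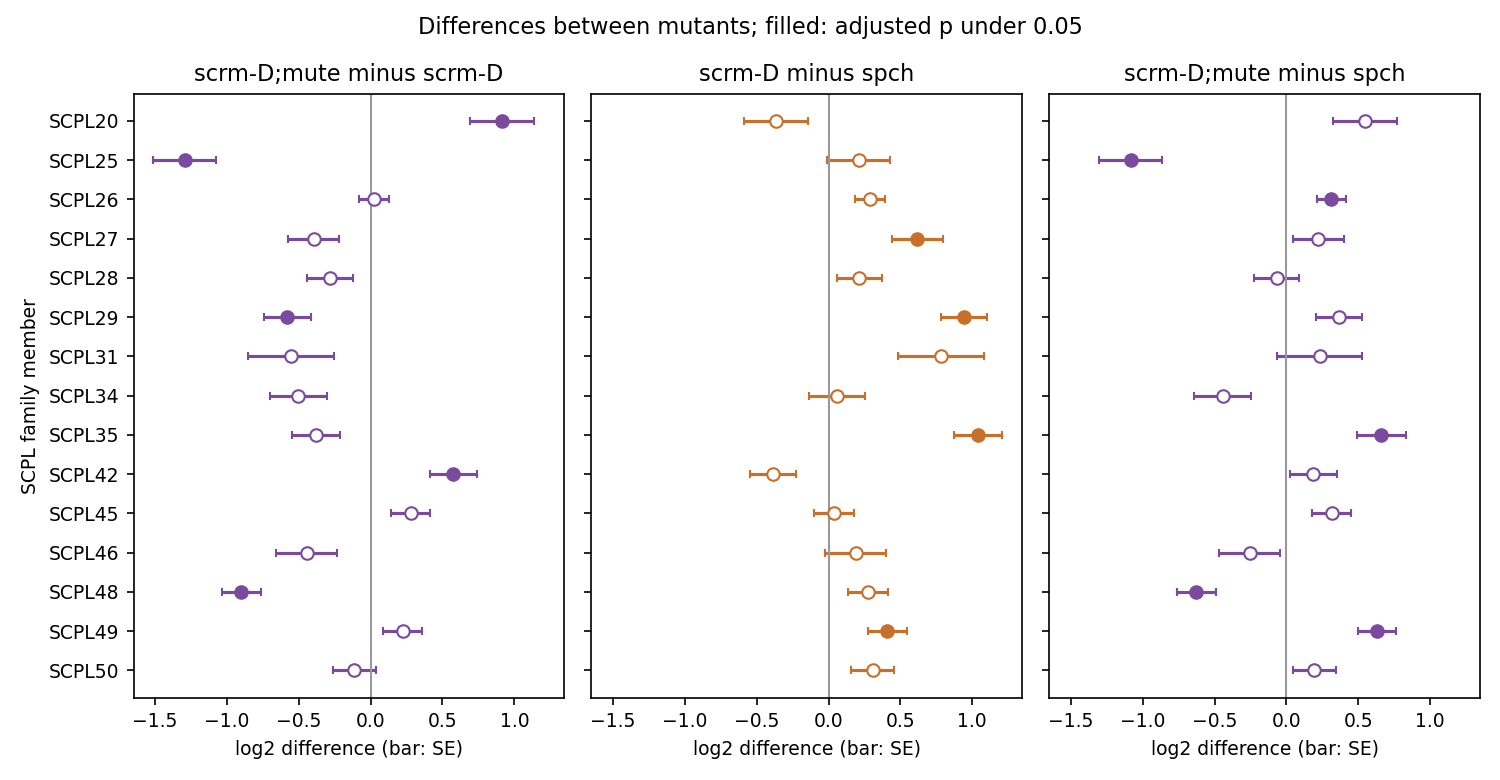
Log2 differences between mutants (horizontal axis, bars are the standard error) of the same 15 members, for the double mutant minus scrm-D, scrm-D minus spch and the double mutant minus spch; filled points were called at an adjusted p under 0.05. SCPL25 and SCPL48 lie left of 0 in both panels with the double mutant, and SCPL35 and SCPL49 lie right of 0 in both panels that subtract spch.

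Among the other genes of the acyltransferases' pathways, 6 of 21 listed genes of phenylpropanoid and sinapate ester synthesis had a probe set of their own. In spch 1 was called higher and 1 lower, in scrm-D 1 higher and 0 lower, and in the double mutant 2 higher and 3 lower. Of all probe sets, 9.60%, 6.76% and 14.1% were called higher in these mutants, and 9.93%, 7.39% and 13.6% lower. UGT84A3, encoding a glucosyltransferase of the group that forms hydroxycinnamate glucose esters, rose in spch by 2.05 ± 0.25 (SE, adjusted p = 0.000152), in scrm-D by 1.47 and in the double mutant by 0.83. Its relative UGT84A1 rose in the double mutant by 0.95 (adjusted p = 0.00746). UGT84A4, another relative, fell in spch by 0.85 (adjusted p = 0.00870), and was named after its values were seen. HCT, a hydroxycinnamoyl transferase, and REF1, which oxidises sinapaldehyde to sinapate, fell in the double mutant by 0.55 and 0.67. These glucosyltransferase genes resemble each other, and their values are uncertain where probes cross-hybridise.

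Of 15 listed genes of anthocyanin synthesis, whose products SCPL acyltransferases can decorate with sinapate, 5 were measured and 4 fell in each mutant. Of all probe sets, 9.93% were called lower in spch, 7.39% in scrm-D and 13.6% in the double mutant. The 4 were DFR, UF3GT, UGT75C1 and 5MAT, the last a malonyltransferase that acylates anthocyanins. 5MAT fell from 6.74 ± 0.52 (SD, n = 3) in WT to 5.00 ± 0.43 in spch, and in scrm-D and the double mutant it averaged 4.88 and 4.87, under the background level. UGT78D2 differed by −0.53 to −0.61 without a call. None of 15 listed genes of brassinosteroid synthesis and signalling had a single-gene probe set, so that list was not analysed here.

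Markers of cell types moved with the genotypes beside these differences, and their part in them was not tested. Of 5 listed stomatal precursor genes 2 were measured, SPCH and MUTE, which are also among the mutated genes. Their mean level per array was 5.29 to 5.60 in WT, 4.73 to 4.78 in spch, 6.85 to 7.87 in scrm-D and 10.64 to 10.94 in the double mutant. Of 6 listed guard cell genes 3 were measured (FAMA, BLUS1 and GC1). Their mean level per array was 7.88 to 8.18 in WT, 4.80 to 7.39 in spch, 10.62 to 10.90 in scrm-D and 6.31 to 7.10 in the double mutant. The 4.80 came from spch replicate 4, where GC1 read 4.31, against 9.70 and 9.64 on the other spch arrays. Against WT, limma called 2 lower in spch, 2 higher in scrm-D and 1 lower in the double mutant (9.93%, 6.76% and 13.6% of all probe sets). GC1 was called in none of these (adjusted p = 0.0976, 0.270 and 0.0900). Both measured root hair genes of 3 listed, EXPA7 and EXPA18, fell in spch, where 9.93% of all probe sets were called lower. Their mean levels there were 4.96 to 5.14, against 6.05 to 6.63 in WT. In scrm-D against spch, where 4 members were called higher, so were EXPA7, EXPA18, the 3 guard cell genes and 2 stomatal precursor genes measured, and 15.3% of all probe sets. Of the 6 mesophyll and photosynthesis genes, 0 were called higher there and 4 lower, beside 14.7% of all probe sets called lower. All 6 listed mesophyll and photosynthesis genes were measured, and 0, 3 and 5 fell in spch, scrm-D and the double mutant (9.93%, 7.39% and 13.6% of all probe sets). Their mean levels were 12.43 to 12.49 in WT, 12.06 to 12.46 in spch, 11.41 to 11.89 in scrm-D and 11.36 to 11.67 in the double mutant. None of the 7 listed seed storage genes had a single-gene probe set.

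The 25S ribosomal RNA control moved with genotype too. Its highest spch array, replicate 4, was the lowest of the 3 spch arrays for 12 of the 17 members above background. This held for 36.4% of all probe sets above background. In WT and in scrm-D the control was instead lowest on replicate 4. That array was the lowest for 8 of the 17 members in each (37.2% and 35.2% of those probe sets). In the double mutant, replicates 2, 3 and 4 were the lowest for 6, 6 and 5 members (31.4%, 29.5% and 39.0%). With the control's value as a covariate, 5, 3 and 5 members were called lower against WT in spch, scrm-D and the double mutant. On this control every spch and scrm-D array read above every WT array. In the double mutant only replicate 4 read within the WT range. Genotype and the control's value thus largely coincide against WT, and the covariate fit cannot tell them apart. Over all probe sets, the share called against WT went from 19.5% to 9.27% in spch, from 14.2% to 9.97% in scrm-D and from 27.7% to 16.4% in the double mutant. The member calls that ended were SCPL20, SCPL26, SCPL28 and SCPL50 in spch (adjusted p = 0.0698, 0.287, 0.101 and 0.112), SCPL28 and SCPL42 in scrm-D (0.314 and 0.190), and SCPL27, SCPL29, SCPL34 and SCPL46 in the double mutant (0.0856, 0.232, 0.209 and 0.10). All 10 differences kept their sign, at 56.5% to 106% of their size without the covariate, and their standard errors were 1.09 to 1.32 times as large. SCPL20 in spch went from −0.89 to −0.94 and SCPL50 from −0.60 to −0.55, while SCPL29 in the double mutant went from −0.60 to −0.34. Replicate 4 of the double mutant, where the control read 6.96 as in WT, was the lowest double mutant array for some of the members called there against WT (SCPL25, SCPL31, SCPL45 and SCPL48) and the highest for SCPL27, SCPL28, SCPL29 and SCPL34.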

How the data were processed

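Expression was deposited as log2 values between 3.13 and 14.63, 1 for each array and probe set, which the authors had normalized. RMA and limma, with no versions, are named in the submitters' processing notes, and no genome build is named there. Of 22810 probe sets, 64 controls were left out. Per the labels' protocols, seeds were kept at 4 °C for 2 days, and seedlings then grew at 21 °C in an 18 h day until harvest at 5 days. Groups and replicate numbers came from the titles. For scrm-D the description field names scrm-D;mute, against title and genotype, which were followed.

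A single limma model (version 3.58.1, R 4.3.3) was fitted to the deposited log2 values of the 12 arrays, giving each genotype a mean, with default moderation. Tests were two-sided, and the smallest group was 3 arrays, which limits the precision. p-values measure only the spread between these samples. Where 1 genotype mean lay under the background level (255 control values, median 3.99, highest 5.88), the fold used that level in its place and is written as at least. Control values of 1 bacterial transcript on replicate 4 of the double mutant were left out of that level after they were seen.

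Probe sets were named by the platform annotation, which lists 13513 with 1 gene, 503 with several and 8794 not at all. All 29 members matched a locus of TAIR10.1, used for names and neighbours only. The members and lists were chosen with earlier results of these data known. Members with a call and a log2 difference of at least 1 were to be given array by array, and the other called members were given so as well, a choice made after their values were seen. No sequences were used here. The fit was tested on simulated data, with independent noise on each array and changes added in spch only. That setting lacks the correlation between same-numbered arrays described next.

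Same-numbered arrays were judged to pair where their deviations from the genotype means correlated above 0.1 for every number. This held for spch with WT (0.138 to 0.174), scrm-D with WT (0.103 to 0.299), the double mutant with scrm-D (0.215 to 0.525) and with spch (0.110 to 0.251). It did not hold for the double mutant with WT (lowest 0.0826) or scrm-D with spch (lowest 0.0338). The main model had no term for the number in any of the 6 comparisons, also where arrays paired. Its calls thus ignore the pairing, and the replicate block was run only as an alternative. What a number marks is not stated in the labels. Alternatives were the replicate block, leaving out each array, the 2 genotypes alone, a variance trend, median centring, a filter at the background level, the 25S covariate and leaving out replicate 4 of every genotype.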

Additional observations from a re-analysis of the deposited data

Results flagged for a closer look

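The 6 probe sets for the bacterial phe transcript averaged 5.15 on replicate 4 of the double mutant, above the 4.15 to 4.34 of the other 8 arrays of WT, spch and the double mutant. All 6 probe sets read higher on that array than on those 8. The scrm-D arrays, where these probe sets read high, averaged at least 13.07. These control probe sets are not among those compared. The high phe reading was shared by all scrm-D arrays, so what it marks cannot be told apart from that genotype in its comparisons. Replicate 4 of the double mutant was also apart on the 25S control, at 6.96 against 10.84 and 11.06 on replicates 2 and 3. What these readings mean for the SCPL members was not tested.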

How the results depend on the processing

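No member result with a call reversed its sign under any alternative. Of 37 calls over the 6 comparisons, 24 held without any 1 array and 21 under every alternative run. With the 25S ribosomal RNA covariate the members called moved from 9 to 5 in spch, from 5 to 3 in scrm-D and from 9 to 5 in the double mutant against WT, and the F test from 15 to 9. The share of all probe sets called against WT went from 19.5% to 9.27%, from 14.2% to 9.97% and from 27.7% to 16.4%, and the 10 member differences that lost their call kept 56.5% to 106% of their size. Without replicate 4 of every genotype, 3 were called in scrm-D against WT, and with only the arrays of the 2 genotypes, 3 between the double mutant and scrm-D. Leaving out 1 array gave 6 to 10 calls in spch, 3 to 5 in scrm-D and 7 to 10 in the double mutant against WT. It gave 2 to 6 for the double mutant against scrm-D, 2 to 5 for scrm-D against spch, 4 to 6 for the double mutant against spch, and 11 to 14 for the F test. The replicate block gave 10, 6 and 10 calls against WT, 5, 5 and 7 between mutants in that order and 15 for the F test. It ended no call. For pairs of genotypes whose numbers did not pair, it gave adjusted p = 0.0340 for SCPL50 in the double mutant against WT and 0.0213 for SCPL31 in scrm-D against spch. Centring arrays on their median added 7 calls. Among members above background these were SCPL35 and SCPL50 in the double mutant against WT (adjusted p = 0.0471 and 0.0430), SCPL42 in scrm-D against spch (0.0491) and SCPL34 in the double mutant against spch (0.0473). Under background they were SCPL41 in scrm-D and the double mutant against spch (0.0438 and 0.0428) and SCPL43 in the latter (0.0442). Centring ended SCPL26 against WT and in the double mutant against spch (0.0503 and 0.133) and SCPL49 in scrm-D against spch (0.0656). Counting every single-gene SCPL probe set changed nothing, as each gene has 1. The cause of these shifts was not tested.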
